A study of Homo sapiens with 4 samples.

Results

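The HOX cluster genes are the rows of the count table whose symbol is HOX, a cluster letter from A to D and a number, 39 of 26364 gene symbols. They comprised 11 genes of the HOXA cluster, 10 of HOXB, 9 of HOXC and 9 of HOXD. Their RNA was measured in Ishikawa cells, a human endometrioid adenocarcinoma line, that carried the Y537S mutation of ESR1, the gene of estrogen receptor alpha (ER-Y537S). Per the labels, 2 mutant clones were kept in hormone-deprived medium, each was treated for 8 h with 10 nM estradiol (E2) or with 0.1% DMSO as vehicle, and a poly(A)-selected stranded library was made from 500 ng of RNA for each. This gave 2 DMSO and 2 E2 libraries. The mutation, the hormone-deprived medium and the line are common to all 4 libraries, and no cells with the unmutated receptor entered any comparison. The column names tell the clones apart by the tags A4 and B212, which could not be linked to the clone numbers of the labels. Each tag stands for 1 clonal line, and nothing in the labels says whether the treatments were given to separate cultures, so p-values measure only the spread between these libraries.

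HOX genes encode homeodomain transcription factors that give cells along the body axis their positional identity. They lie in 4 clusters, and within a cluster the order of the genes, written as paralog groups 1 to 13 from the 3′ end to the 5′ end, follows the order of their expression along the body. HOXA10 and HOXA11 pattern the uterus in the embryo and are needed in the adult endometrium for implantation. HOX proteins bind DNA together with PBX and MEIS partners, Polycomb proteins keep HOX clusters silent, trithorax group proteins keep them active, and retinoic acid switches on genes at the 3′ end.

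RefSeq (GRCh38.p14) promoter windows, from 250 bases before to 50 bases after a transcript start, were found for 20 of the 39 genes, as 27 entries. HOXB1 was the only HOXB gene among the 20. HOXB8, HOXB9 and HOXD9, the genes called lower with E2 further below, had no window and were not searched. Those of HOXA10, HOXA11, HOXD4 and HOXD3 are shown here. The first pair are the uterine genes, and the other pair are neighbours that were both higher in clone B212. Capitals mark the core that estrogen receptor and related nuclear receptors bind as a pair, GGTCA or on the other strand TGACC. HOXA10 has 2 entries on the minus strand, at chr7:27179812-27180111 and chr7:27174271-27174570, HOXA11 has 1 on the minus strand at chr7:27185183-27185482, and the windows of HOXD4 and HOXD3, on the plus strand, are chr2:176151300-176151599 and chr2:176157057-176157356.
HOXA10, first entry: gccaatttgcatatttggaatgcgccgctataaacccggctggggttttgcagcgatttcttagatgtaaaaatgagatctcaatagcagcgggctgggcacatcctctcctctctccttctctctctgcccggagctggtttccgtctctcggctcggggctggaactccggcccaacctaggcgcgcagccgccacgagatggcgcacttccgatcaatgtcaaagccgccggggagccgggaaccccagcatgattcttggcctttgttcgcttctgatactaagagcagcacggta
HOXA10, second entry: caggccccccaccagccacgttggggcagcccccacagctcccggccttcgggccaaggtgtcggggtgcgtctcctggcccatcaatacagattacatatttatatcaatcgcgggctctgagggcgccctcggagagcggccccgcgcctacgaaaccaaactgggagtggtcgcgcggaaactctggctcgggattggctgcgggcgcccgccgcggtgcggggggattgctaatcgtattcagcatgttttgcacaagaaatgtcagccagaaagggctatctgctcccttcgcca
HOXA11: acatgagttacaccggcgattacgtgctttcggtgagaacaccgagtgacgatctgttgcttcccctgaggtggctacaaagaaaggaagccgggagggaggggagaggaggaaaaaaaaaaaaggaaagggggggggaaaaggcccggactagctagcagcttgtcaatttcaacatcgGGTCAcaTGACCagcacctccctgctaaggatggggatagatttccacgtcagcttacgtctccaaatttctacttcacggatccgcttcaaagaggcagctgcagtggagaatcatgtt
HOXD4: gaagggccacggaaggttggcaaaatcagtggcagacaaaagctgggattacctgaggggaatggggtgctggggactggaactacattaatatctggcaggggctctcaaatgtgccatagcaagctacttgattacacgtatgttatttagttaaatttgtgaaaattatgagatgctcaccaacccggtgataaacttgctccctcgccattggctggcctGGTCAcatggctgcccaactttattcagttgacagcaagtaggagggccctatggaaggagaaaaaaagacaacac
HOXD3: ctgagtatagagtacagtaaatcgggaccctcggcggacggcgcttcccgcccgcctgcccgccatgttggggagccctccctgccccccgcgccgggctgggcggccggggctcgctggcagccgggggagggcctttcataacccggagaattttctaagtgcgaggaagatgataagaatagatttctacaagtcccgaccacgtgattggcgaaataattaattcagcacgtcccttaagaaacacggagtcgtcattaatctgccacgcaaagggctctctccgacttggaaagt

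Neither HOXA10 window held this core. The HOXA11 window held 2, one on each strand, starting at -70 and -63 from the transcript start. The HOXD4 window held 1, at -26, and the HOXD3 window held 0. The core occurred in 37.3% of all 34796 distinct promoter windows, and the full estrogen response palindrome GGTCANNNTGACC, made of 2 cores, in 0.0575% of them and in none of the 27 HOX entries. The direct repeat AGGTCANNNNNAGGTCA of retinoic acid receptors, searched on both strands, was in 0.00575% of all windows and in none of the 27. HOXD4 had 4 CpG dinucleotides and HOXD3 had 25, against a median of 14 over all windows. The motif TGATNNAT, bound by PBX with HOX, was found in 7.42% of all windows and in none of the 5 shown. The CDX motif TTTATNG was found in 9.75% of all windows, and among those shown in the first of HOXA10, at -223. These matches describe letters in a window, and binding was not measured.

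The libraries held 71575816 to 85222856 counts over 18358 to 18861 genes with a count. All 11 epithelial markers in the table passed the count filter, with a summed level of 2445 to 3204 CPM (counts relative to library size, scaled by TMM). Endothelial and leukocyte markers summed to 2.30 to 5.11 and 0.724 to 1.19 CPM, with PECAM1 and CD3E at 0 in every library. Smooth muscle markers summed to 20.2 to 25.5 CPM. Stromal or fibroblast markers summed to 132 CPM with DMSO and 96.0 with E2 in A4, and to 46.7 and 38.6 in B212. Most of this sum was COL1A1, while DCN had at most 1 count and LUM at most 5. ESR1 itself had 109.9 normalised CPM with DMSO and 97.0 with E2 in A4, and 107 and 86.5 in B212. Gene counts do not show which allele was transcribed.

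Levels per length are given as RPKM, the normalised CPM per kilobase of the longest GENCODE transcript. HOXB was the most expressed cluster. Its summed level was 74.2 RPKM with DMSO and 70.9 with E2 in A4, and 120.5 and 109 in B212, which made 53.0% to 65.1% of all HOX RNA by this measure. HOXD summed to 34.1, 32.8, 36.0 and 35.4 RPKM in A4 DMSO, A4 E2, B212 DMSO and B212 E2, and HOXA to 29.7, 28.1, 27.6 and 27.4. HOXC was nearly silent, at 2.16, 2.05, 0.969 and 0.903 RPKM. HOXC thus held 0.524% to 1.54% of the total, with HOXC9 as its leading gene.

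**Figure D1:**
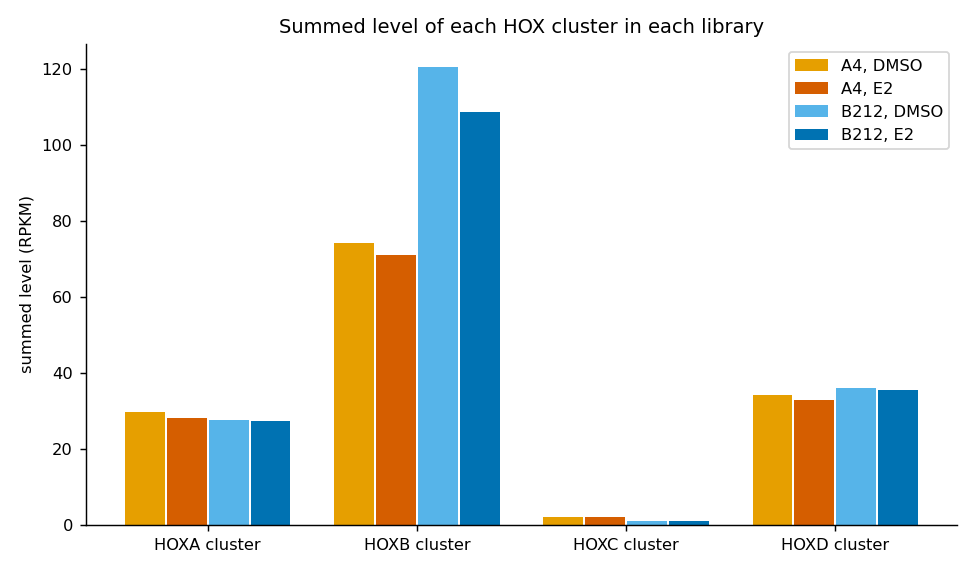
Summed level of each HOX cluster (RPKM, y axis) in each of the 4 libraries, 1 bar per library, with no error bar because each bar is a single library. The HOXB bars of clone B212 (120.5 and 109 RPKM) stand above those of A4 (74.2 and 70.9), the HOXC bars of B212 (0.969 and 0.903) stand below those of A4 (2.16 and 2.05), and the HOXA and HOXD bars lie close together.

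By position, the highest levels lay at groups 6 to 9 in HOXB and at groups 8 and 9 in HOXD. HOXB7 was the highest HOX gene, with a mean of 37.6 RPKM (range 29.6 to 45.4), and HOXB6, HOXB9, HOXB8 and HOXD8 followed with means of 15.6, 13.8, 13.8 and 13.7 RPKM. The ranges of those 4 overlapped, so their order is not set beyond the spread of the libraries. At the 3′ end, HOXB1 was at 0 in every library, HOXB2 and HOXA2 reached no more than 0.175 and 0.143 RPKM, and HOXD1 lay between 0.235 and 0.283. At the 5′ end, HOXD13, a gene of limb and genital development, stood out from HOXD10, HOXD11 and HOXD12 with a mean of 6.67 RPKM, while the mean of HOXD11 was 0.951. In HOXA the mean was 6.10 RPKM at HOXA7, 0.0726 at HOXA9 and 9.17 at HOXA10. In all, 6 members averaged over 10 RPKM, 14 lay between 1 and 10, and 19 lay under 1.

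**Figure D2:**
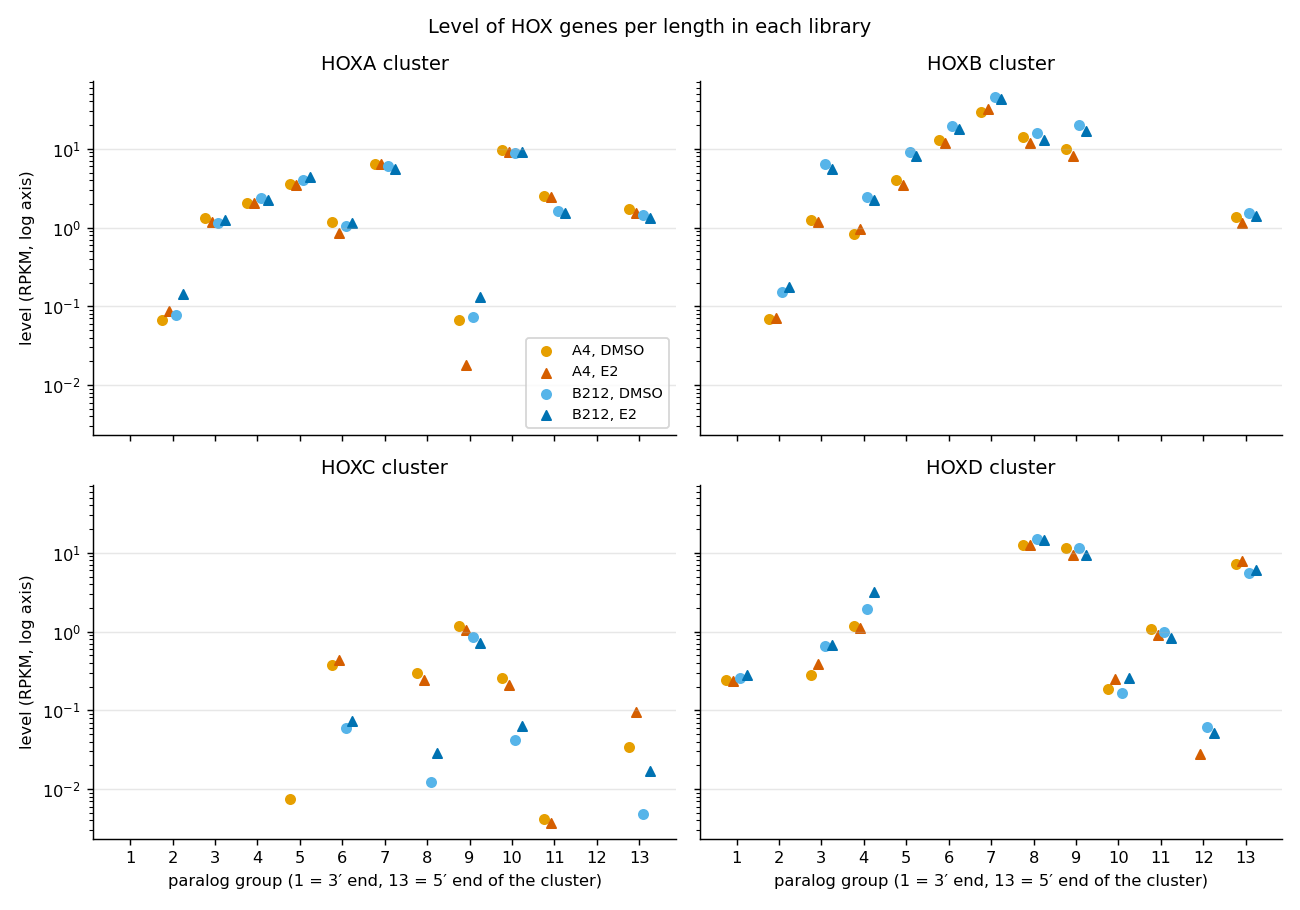
Level of 38 HOX genes (RPKM, log axis) against paralog group, 1 panel per cluster and 1 point per library, with libraries at 0 not drawn. The points rise to HOXB7 at 29.6 to 45.4 RPKM in the HOXB panel, and no HOXC gene passes 1.18 RPKM.

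Of the 39 genes, 32 had enough counts to be tested, among 15599 tested in all. The other 7 were HOXB1, HOXC4 and HOXC12, at 0 in every library, HOXC5 and HOXC11, with at most 1 count, HOXD12, with at most 7, and HOXC13, with at most 19. A count of 0 allows up to 3 counts, or 0.0352 to 0.0419 CPM depending on the library, counting error only. Some neighbouring HOX genes share sequence in the annotation. The RefSeq spans of HOXA9 and HOXA10 lie wholly within the read-through gene HOXA10-HOXA9, listed at 0 counts, that of HOXB4 lies within HOXB3, and that of HOXC6 lies within HOXC4. HOXD4 shares 41.6% of its span with HOXD3, and HOXB5 and HOXB6 lie within the span of HOXB-AS3 on the opposite strand. How reads over 2 genes were assigned, and whether strand was used, is not given in the sources used here, so values of these genes are uncertain to that extent.

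HOXA10 was the highest gene of its cluster and the seventh of all HOX genes per length. It had 24.6 normalised CPM with DMSO and 23.5 with E2 in A4, and 22.2 and 23.0 in B212. The 4 libraries lay close together, and with E2 the value was slightly lower in A4 and slightly higher in B212. The B212 minus A4 log2 fold change was -0.088 ± 0.084 (SE, edgeR adjusted p = 0.401), and E2 minus DMSO was -0.0078 ± 0.084 with the clone as a block (edgeR adjusted p = 0.966). Its range of 8.73 to 9.66 RPKM overlapped that of HOXD9, next above it, at 9.28 to 11.5, and lay above that of HOXD13, at 5.49 to 7.99.

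HOXA11 was lower in B212 and gave the only call between the clones in the HOXA cluster. It had 5.75 normalised CPM with DMSO and 5.61 with E2 in A4, and 3.76 and 3.48 in B212. Both A4 libraries lay above both B212 libraries, while DMSO and E2 libraries overlapped. The log2 fold change between clones was -0.65 ± 0.13 (SE, edgeR adjusted p = 2.86e-04), and E2 minus DMSO with the clone as a block was -0.072 ± 0.13 (edgeR adjusted p = 0.773). HOXA11-AS, its antisense gene, had 20, 17, 34 and 18 counts in the 4 libraries and did not pass the test between clones (edgeR adjusted p = 0.397). Per length HOXA11 ranged from 1.52 to 2.50 RPKM, which overlapped its neighbours in the order, HOXA4 at 2.04 to 2.37 and HOXD4 at 1.12 to 3.21.

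Between the clones, 7 of 9 HOXB genes tested were higher in B212, the 4 HOXC genes tested were lower, and of 11 HOXA genes only HOXA11 passed the test. Under some alternatives further genes passed. These were HOXA13 (log2 -0.29, edgeR adjusted p = 0.0158) and HOXB8 (log2 0.17, edgeR adjusted p = 0.0417) once counts were corrected for transcript length and GC content, and HOXA5, HOXA9 and HOXB8 with library size only (edgeR adjusted p = 0.0357, 0.0474 and 0.0433). Of the 32 members tested, 16 passed it (50%), against 51.0% of all genes, so the share called among HOX genes was that of the whole table. Of these, 10 were higher in B212 (25.2% of all genes were) and 6 were lower (25.8% of all genes). Over all genes 3927 were higher and 4023 lower, and with scaling by library size only 4761 were higher and 3176 lower. With a log2 difference of at least 1 as well, 10 members were called (31.2%), against 11.0% of all genes. Of these 10, HOXB2, HOXC8 and HOXC10 had fewer than 10 counts in both libraries of one clone, so they passed the filter through the other and had to differ. Without these 3 genes, 13 of 29 members were called at the threshold alone, with no cut on size. The share over all genes was not recounted without genes of this kind, so 31.2% against 11.0% does not show a HOX excess. Log2 differences were also read in fits without 1 library, which leave no room for the treatment term. They are set here beside the fit of all 4 libraries without that term. Such fits leave 1 clone with a lone library, assumed to vary like the others, and set unequal shares of the treatments against each other. They say nothing about the stability of a call. The median log2 difference was 0.16 over the 32 members and 0.0042 over all genes, and the median absolute difference was 0.44 and 0.28. In 24 of the 32 members the A4 and B212 libraries did not overlap. That share was not counted over all genes, so it does not set HOX genes apart.

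In HOXB, 7 of the 9 genes tested were higher in B212 and 0 were lower. HOXB2, among the 7, was tested only through its counts in B212, so its call is no support for the direction of the cluster. HOXB3 changed most. It had 5.33 and 4.94 normalised CPM in A4 (DMSO, then E2) and 27.0 and 23.2 in B212, which is 4.89-fold (log2 2.29 ± 0.099, SE, edgeR adjusted p = 1.33e-13). HOXB4, known for its part in blood stem cells, had 3.11 and 3.64 in A4 and 9.15 and 8.36 in B212, 2.59-fold (log2 1.37 ± 0.13, edgeR adjusted p = 2.44e-08). For both genes every B212 library lay well above every A4 library.
HOXB5 rose from 8.26 and 7.12 normalised CPM in A4 to 18.4 and 16.8 in B212, 2.29-fold (log2 1.19 ± 0.098, edgeR adjusted p = 3.87e-09). HOXB9, the most 5′ of the contiguous HOXB genes, had 25.8 and 21.2 in A4 and 51.5 and 43.6 in B212, 2.03-fold (log2 1.02 ± 0.079, edgeR adjusted p = 1.66e-09). Between them in the cluster the differences were smaller. HOXB6 had 25.2, 23.1, 38.7 and 34.9 normalised CPM in A4 DMSO, A4 E2, B212 DMSO and B212 E2 (log2 0.61 ± 0.080, edgeR adjusted p = 3.05e-06). HOXB7 had 40.6, 44.0, 62.2 and 59.5 in the same order (log2 0.53 ± 0.077, edgeR adjusted p = 1.11e-05). Without the treatment term HOXB7 still passed (edgeR adjusted p = 0.00807), and without that term and the B212 DMSO library its log2 difference was 0.48.
HOXB8, which lies between HOXB7 and HOXB9, had 25.8, 21.8, 28.9 and 23.8 normalised CPM, and its groups overlapped (log2 0.15, edgeR adjusted p = 0.149). HOXB13, a gene known from prostate and colon, likewise did not pass (log2 0.23, edgeR adjusted p = 0.135). HOXB2 had 8 and 9 counts in A4 and 20 and 20 in B212, a ratio of 2.30 (95% exact counting interval 1.28 to 4.33), and passed narrowly (edgeR adjusted p = 0.0428). It did not pass without the treatment term in all 4 libraries (edgeR adjusted p = 0.0626). Without that term and each library in turn, its log2 difference was 1.09 to 1.29.

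In HOXC, 5 of 9 genes had too few counts to be tested. The 4 tested genes were lower in B212, all at a low level, and HOXC8 and HOXC10 were tested only through their counts in A4, so their calls are no support for the direction of the cluster. HOXC6 had 81 and 106 counts in A4 and 15 and 16 in B212, so A4 was 6.16-fold higher (95% exact counting interval 4.20 to 9.33) and the log2 fold change was -2.60 ± 0.31 (edgeR adjusted p = 7.86e-07). HOXC8 had 41 and 38 counts in A4 and 2 and 4 in B212, a ratio of 13.5 (interval 5.91 to 37.8). HOXC10 had 37 and 33 counts in A4 and 7 and 9 in B212, a ratio of 4.47 (interval 2.57 to 8.25). In each of these 3 genes both A4 libraries lay above both B212 libraries. HOXC9 had 131, 132, 110 and 80 counts in A4 DMSO, A4 E2, B212 DMSO and B212 E2. It passed the test (log2 -0.51 ± 0.20, edgeR adjusted p = 0.0364), but not without the treatment term in all 4 libraries (edgeR adjusted p = 0.104). Without that term and each library in turn, its log2 difference was -0.65 to -0.40.
HOTAIR, the noncoding RNA of the HOXC cluster, had 2 counts in the A4 E2 library and 0 in the others.

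In HOXD, 3 genes were higher in B212 and HOXD13 was lower. HOXD3, HOXD4 and HOXD8 fall outside the rule for named genes and were chosen after their values were seen. HOXD4 had 1.71 and 1.63 normalised CPM in A4 and 2.82 and 4.71 in B212, with the B212 E2 library highest (log2 1.14 ± 0.18, edgeR adjusted p = 2.93e-05). Without the treatment term the log2 difference was 1.17, and without that term and the B212 E2 library 0.76. HOXD3 had 0.669 and 0.914 in A4 and 1.58 and 1.61 in B212 (log2 1.02 ± 0.22, edgeR adjusted p = 7.53e-04). It also passed without the treatment term (edgeR adjusted p = 0.0196). Without that term and the A4 DMSO library its log2 difference was 0.79. Both genes were higher in both B212 libraries.
HOXD8 differed least of the called genes, with 24.0 and 24.1 normalised CPM in A4 and 28.7 and 28.1 in B212 (log2 0.24 ± 0.082, edgeR adjusted p = 0.0184). It did not pass without the treatment term in all 4 libraries (edgeR adjusted p = 0.0941). Without that term and each library in turn, its log2 difference was 0.21 to 0.26. HOXD9 did not pass the test between clones (log2 0.00064 ± 0.086, edgeR adjusted p = 0.996). HOXD13 had 15.96 and 17.9 normalised CPM in A4 and 12.3 and 13.6 in B212 (log2 -0.39 ± 0.092, edgeR adjusted p = 0.00154). Both A4 libraries lay above both B212 libraries, and the gene passed narrowly without the treatment term (edgeR adjusted p = 0.0435). Without that term and each library in turn, the log2 difference of HOXD13 was -0.48 to -0.30.

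Along HOXB and HOXD the clone difference fell with paralog number. Spearman's rho between the paralog group and the log2 difference was -0.82 over 9 HOXB genes and -0.79 without HOXB13, and -0.83 over 8 HOXD genes and -0.75 without HOXD13. HOXA gave -0.39 over 11 genes and HOXC 0.60 over 4. These are descriptions, since genes of a cluster share libraries and, in part, transcripts. Single genes broke the order in both clusters: HOXB9 (1.02) exceeded HOXB6, HOXB7 and HOXB8, HOXB2 (1.20) lay below HOXB3 (2.29), and HOXD1 (0.19) lay below HOXD3 (1.02) and HOXD4 (1.14).

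**Figure D3:**
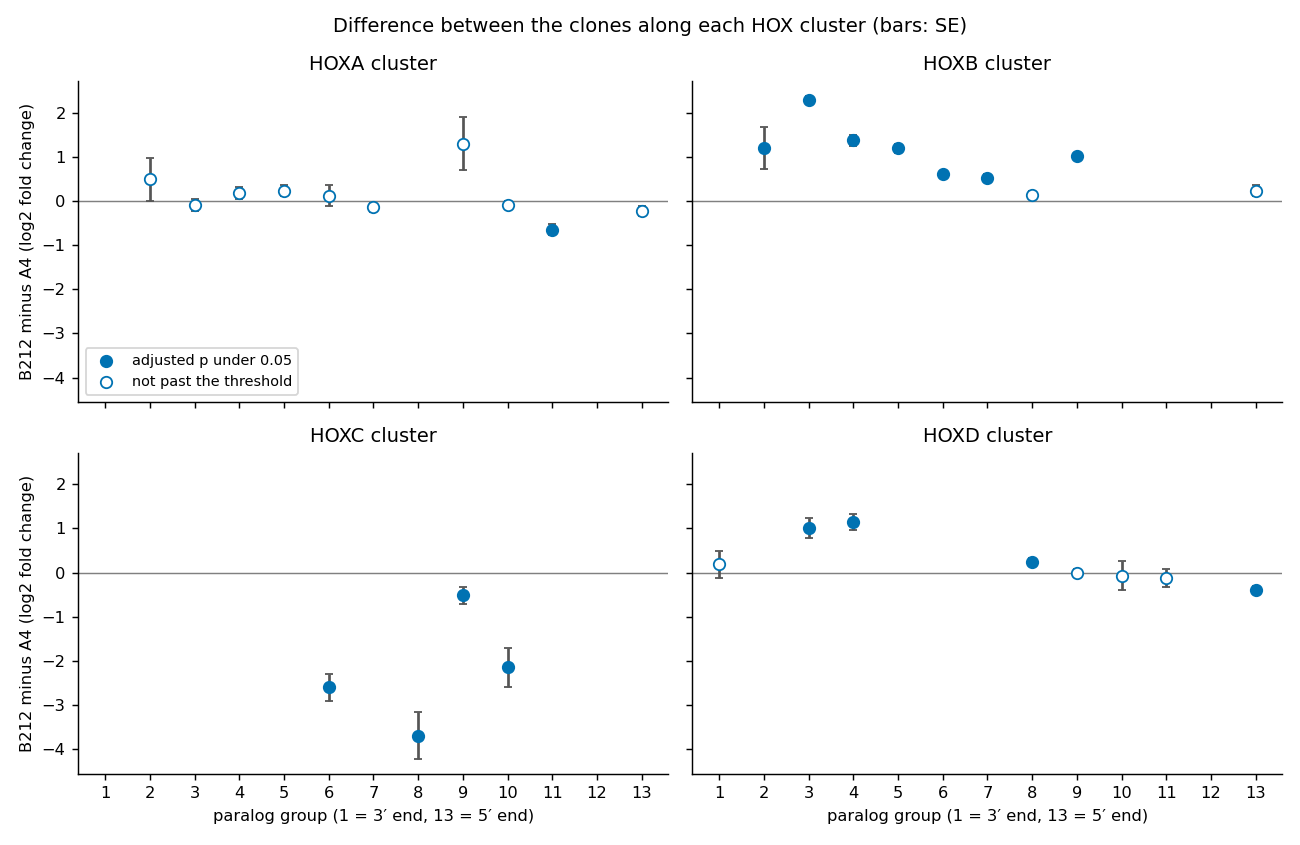
Log2 fold change of B212 over A4 (y axis) for 31 of the 32 tested HOX genes by paralog group, 1 panel per cluster, with SE bars and filled points where the edgeR adjusted p is under 0.05. In HOXB all 9 points lie above 0 with the highest at HOXB3 (2.29), the 4 HOXC points lie below 0, and in HOXA only HOXA11 (-0.65) is filled. HOXB2, HOXC8 and HOXC10 were tested only through the clone where they are higher.

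Summed per cluster, HOXB was 1.58-fold higher in B212 (log2 0.66 ± 0.057, SD over the 2 treatments) and HOXC lower (log2 -1.17 ± 0.021). HOXA and HOXD differed by -0.069 ± 0.048 and 0.094 ± 0.026. No p is given for these sums. The stromal markers that also differed between the clones were COL1A1, COL1A2 and COL3A1, all lower in B212 (log2 -1.51, -1.52 and -2.40), and THY1, higher (log2 1.36). Their part in the HOX differences was not tested.

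**Figure D4:**
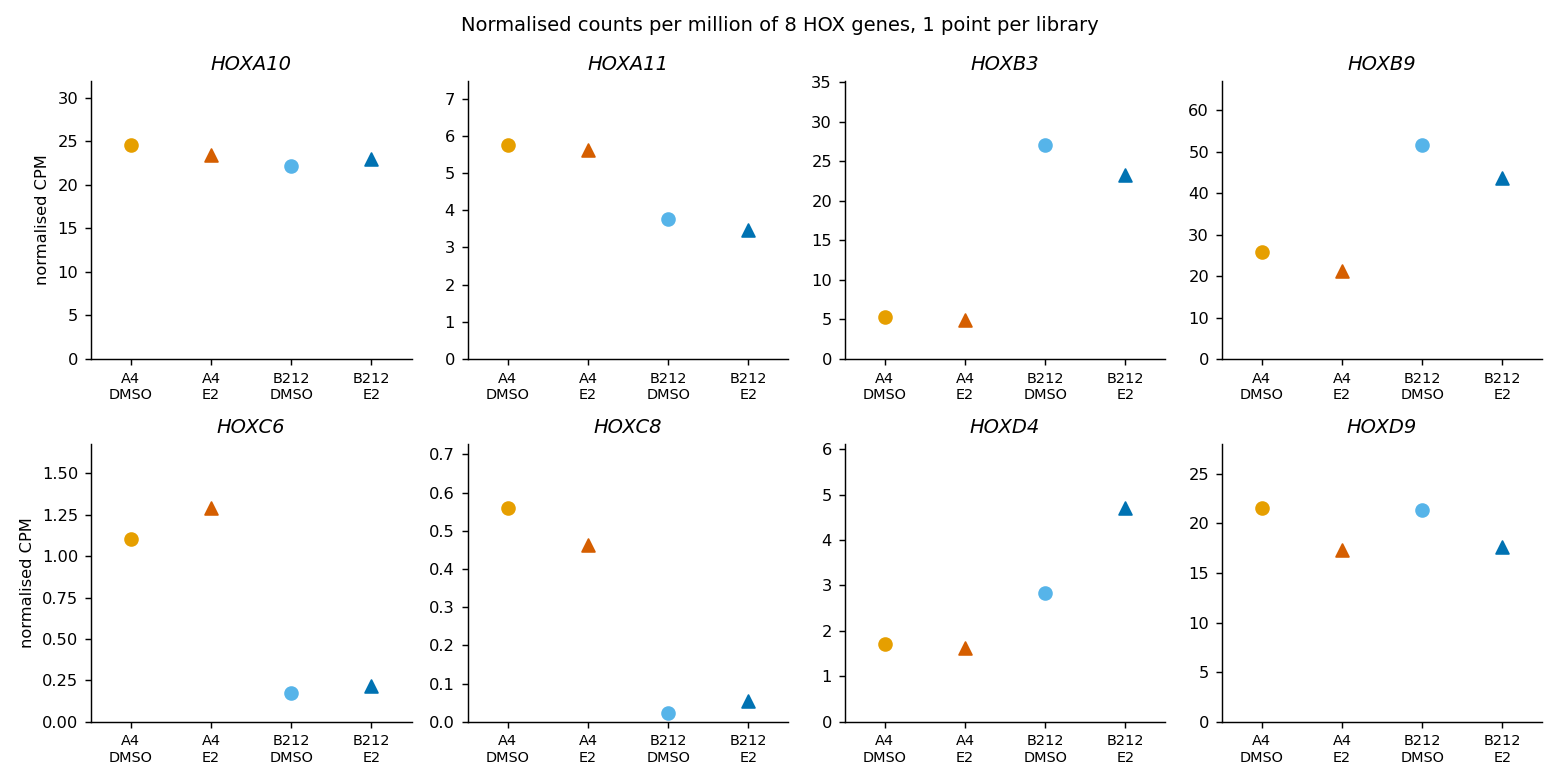
Normalised CPM of 8 HOX genes (y axis from 0, a scale of its own in each panel), 1 point per library. HOXB3 and HOXB9 are higher and HOXC6 and HOXC8 lower in both B212 libraries, HOXA10 is level, HOXD4 is highest in B212 with E2 (4.71), and HOXD9 is lower with E2 in both clones.

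The share of HOX genes that passed the test for E2 was near that of all genes. In the comparison of 2 E2 with 2 DMSO libraries without a block, no member passed the edgeR test (0 of 32, against 0.00% of all genes), and the number with an unadjusted p under 0.05 was 0 of 32 members and 150 of all genes. DESeq2 without the block also called 0 members. Because each clone gave 1 DMSO and 1 E2 library, the clone can be kept as a block. With it, 3 of 32 members were lower with E2 (9.38%, against 3.44% of all genes called lower) and 0 were higher (6.13% of all genes were). In either direction 9.38% of members and 9.56% of all genes were called, so the share called among HOX genes was that of the whole table. Of the members 20 had a negative and 12 a positive log2 change, with a median of -0.053, against 8028 and 7571 of all genes with a median of -0.0081.

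The 3 were HOXB8, HOXB9 and HOXD9. The other tested genes of paralog groups 8 and 9 did not pass, with log2 changes of -0.014 for HOXD8, 0.013 for HOXA9, -0.10 for HOXC8 and -0.19 for HOXC9. HOXB8 fell from 25.8 to 21.8 normalised CPM in A4 and from 28.9 to 23.8 in B212 (log2 -0.26 ± 0.082, SE, edgeR adjusted p = 0.0492 with the block). HOXB9 fell from 25.8 to 21.2 in A4 and from 51.5 to 43.6 in B212 (log2 -0.26 ± 0.079, edgeR adjusted p = 0.0416). HOXD9 fell from 21.6 to 17.3 in A4 and from 21.3 to 17.6 in B212 (log2 -0.30 ± 0.086, edgeR adjusted p = 0.0365). The declines were 16.6%, 16.5% and 18.6%. For HOXD9 both DMSO libraries lay above both E2 libraries, as they did for HOXB8, while for HOXB9 the treatment groups overlapped because the clones differed. Without the block the adjusted p of each was 0.9999. With the block, none of the 3 passed by DESeq2, limma-voom or edgeR on DESeq2 size factors, where the adjusted p lay between 0.0501 and 0.138. Cell type markers went both ways with the block. Of the epithelial ones, ESR1 (log2 -0.25, edgeR adjusted p = 0.0330), PAX8 (-0.25) and KRT18 (-0.27) were lower with E2. ALPP (0.52) and ALPPL2 (0.39) were higher. The stromal marker COL1A1 (log2 -0.39, edgeR adjusted p = 0.00394) and the endothelial marker VWF (-0.49) were lower. Their part in the HOX changes was not tested.

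Within a clone, the log2 ratio of E2 to DMSO can be read with its counting error. HOXB8 gave -0.25 in A4 (95% exact interval -0.34 to -0.15) and -0.28 in B212 (-0.37 to -0.19). HOXD9 gave -0.31 (-0.42 to -0.21) and -0.28 (-0.38 to -0.17), and HOXB9 gave -0.28 (-0.38 to -0.19) and -0.24 (-0.31 to -0.17). The intervals of these genes lie below 0 in both clones, cover counting error only, and come from the same counts as the calls. Those of HOXB5 and HOXB6, not called for E2, did so too, so the intervals do not set the called genes apart. HOXB5 had -0.38 to -0.048 in A4 and -0.24 to -0.025 in B212. HOXB6 had -0.22 to -0.030 and -0.22 to -0.074. The intervals of HOXD13 lay above 0 in both clones (0.054 to 0.28 and 0.017 to 0.27). HOXA10 gave -0.065 (-0.16 to 0.028) in A4 and 0.050 (-0.046 to 0.15) in B212, and HOXA11 gave -0.036 (-0.23 to 0.16) and -0.11 (-0.36 to 0.13). For the uterine genes all 4 intervals include 0. Of the 23 members that had 50 counts or more in each library, 13 were lower with E2 in both clones, 1 was higher in both, namely HOXD13, and 9 went opposite ways. Over all 32 tested members, 13 were lower and 6 higher in both clones. These splits were not counted over all genes, so they are not read as a trait of HOX genes.

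**Figure D5:**
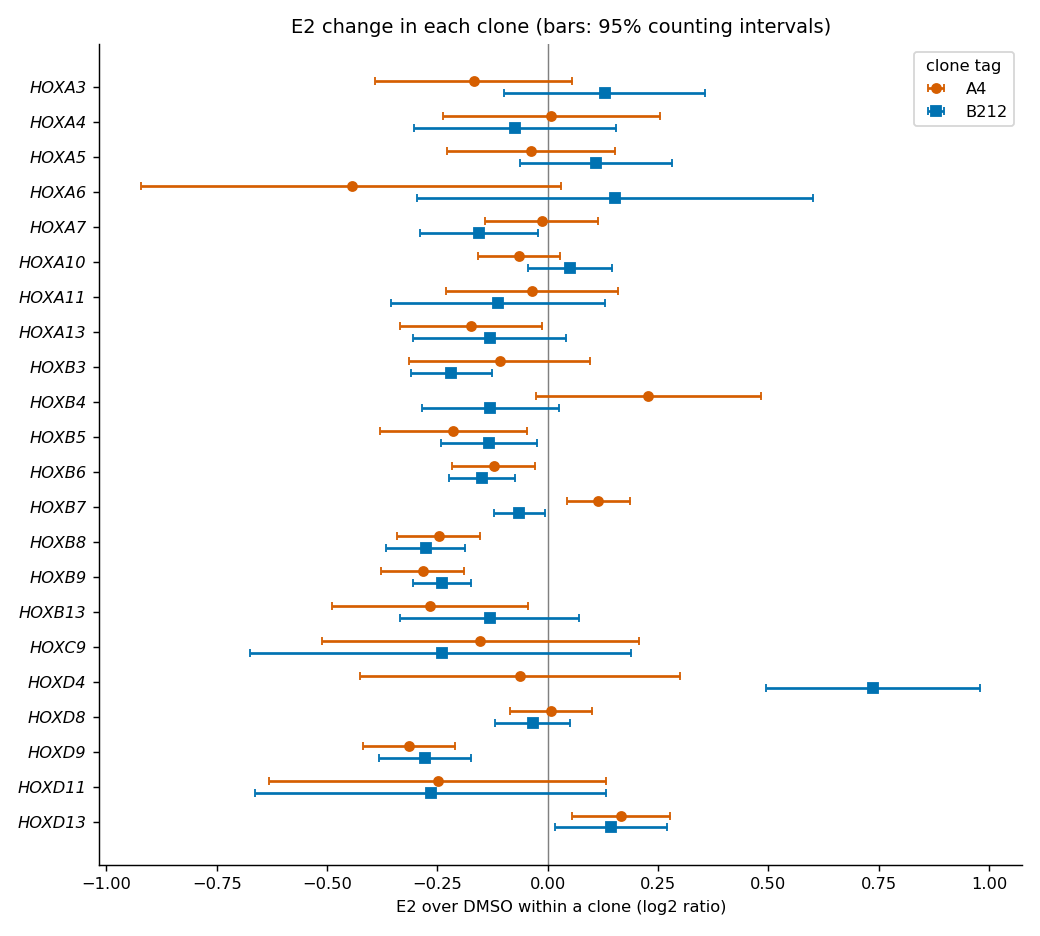
Log2 ratio of E2 to DMSO (x axis) in clone A4 and clone B212 for 22 of the 23 HOX genes that had 50 counts or more in each library, with 95% exact counting intervals. The intervals of HOXB8, HOXB9 and HOXD9, and of the uncalled HOXB5 and HOXB6, lie left of 0 in both clones. HOXA10 and HOXA11 span 0, and HOXD4 is raised in B212 (0.74) with an interval that spans 0 in A4 (-0.063).

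The partners, regulators and neighbours of HOX genes were read from lists, whose counts between the clones stand beside 51.0% of all genes called, 25.2% higher and 25.8% lower in B212. Of 9 PBX, MEIS and PKNOX cofactors 8 were tested, and 5 were higher and 1 lower in B212. PKNOX2 had 588 and 673 counts in A4 and 0 and 0 in B212, which makes A4 at least 200-fold higher against a floor of 3 counts per library. MEIS1 and PBX3 were higher in B212 by 0.26 and 0.37 on the log2 scale.

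Of 29 Polycomb genes tested, 5 were higher and 5 lower in B212. EZH1 (log2 0.61) and CBX7 (0.49) were among the higher, PHF19 (-0.39) and CBX2 (-0.38) among the lower. With E2 under the block RBBP7 rose (log2 0.34) and CBX6 fell (-0.31). Of 20 trithorax and MLL genes, 5 were higher and 4 lower in B212, with E2 raising DPY30 (log2 0.43) and KMT2C (0.25) and lowering AFF1 (-0.26) under the block. CDX2 was the only CDX gene tested and was lower in B212 (log2 -0.50, edgeR adjusted p = 0.0101), while CDX1 and CDX4 were at 0.

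Of 13 retinoid genes tested, 5 were higher and 5 lower in B212. STRA6, the membrane receptor for retinol-binding protein, had 194 and 172 counts in A4 and 11 and 7 in B212 (log2 -4.38, edgeR adjusted p = 1.42e-10). CRABP1, a retinoic acid binding protein, had 111 and 138 in A4 and 15 and 9 in B212 (log2 -3.39), and ALDH1A2, an enzyme that makes retinoic acid, was lower by 1.91 on the log2 scale. RARB, a receptor and retinoic acid target, was higher in B212 (log2 1.37). DHRS3, which returns retinal to retinol, was higher in B212 (log2 0.81) and also rose with E2 under the block (3561 to 7189 counts in A4 and 7494 to 10900 in B212, log2 0.80, edgeR adjusted p = 1.07e-06), while RARG fell (log2 -0.33). Whether retinoid genes bear on the HOX differences was not tested.

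Of 13 Müllerian duct genes in the list 6 were tested, and 4 were higher and 1 lower in B212. EMX2, a homeobox gene that HOXA10 is known to repress, was higher in B212 (log2 0.80, edgeR adjusted p = 7.98e-09). ITGB3, an integrin gene that HOXA10 is known to activate, was lower (log2 -1.04, edgeR adjusted p = 1.96e-09). HOXA10 RNA itself did not pass the test between clones, and its part in these differences was not tested. ITGB3 also fell with E2 under the block, with 3958 (DMSO) and 2904 (E2) counts in A4 and 2354 and 1207 in B212 (log2 -0.67, edgeR adjusted p = 7.45e-05), as did PAX8 (log2 -0.25). EMX2 did not pass for E2 (log2 -0.046, edgeR adjusted p = 0.726).

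Of 22 noncoding and antisense genes of the clusters in the table, 9 were tested and 2 passed between the clones. HOXB-AS3 had 268 and 283 counts in A4 and 844 and 791 in B212 (log2 1.54, edgeR adjusted p = 1.63e-09). Its span holds HOXB5 and HOXB6, also higher in B212, and whether strand was used to assign reads is not given. HAGLR, in the HOXD cluster, was higher by 0.56 on the log2 scale. Beyond the ends of the clusters, 22 neighbouring genes were tested, and 8 were higher and 5 lower in B212. Beside HOXA, SKAP2 (log2 0.69) and HIBADH (0.37) were higher and SNX10 (-0.35) was lower. Beside HOXB, SKAP1 was higher (log2 1.27) while ATP5G1 (-0.48) and SNF8 (-0.23) were lower. Beside HOXC, CALCOCO1 (log2 1.05), HNRNPA1 (0.67), NFE2 (0.55) and CBX5 (0.35) were higher. Beside HOXD, CHN1 (log2 -1.23) and ATP5G3 (-0.29) were lower and ATF2 (0.33) was higher. With E2 under the block ATP5G1 (log2 0.26) and ATP5G3 (0.29) rose.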

How the data were processed

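RNA-seq read counts per gene symbol were deposited by the authors as raw whole-number counts, with 1 column for each of the 4 libraries analysed here. Per the submitters' processing notes, HISAT2, SAMtools, featureCounts and DESeq2 were used with hg19; their roles, versions and strand setting are not given in the sources used here. A further 4 columns matched no sample and were not used. Columns were placed in the DMSO or E2 group by the treatment in their names, and the tags A4 and B212 were taken as the clones. Every row named a gene.

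Genes were kept by filterByExpr of edgeR 4.0.16 (minimum count 10), which left 15599, and scaled by TMM. The test was edgeR's quasi-likelihood test, two-sided; for E2 against DMSO it was run without a block, and with the clone as a block as the alternative. The clones were compared with treatment as a covariate. Benjamini-Hochberg adjustment ran over all genes tested, with a threshold of 0.05. The pairing rests on the tags in the column names: libraries of the same tag deviated together from their group means (Pearson r = 0.871 across genes, 1 independent value with 2 groups of 2). A difference in E2 response between clones was not tested, since each clone has 1 library per treatment. No pair of libraries agreed within sampling noise (chi-square per degree of freedom 25.9 to 208).

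RPKM used the longest GENCODE 29 transcript per symbol, coding preferred, found for all 39 HOX genes and 96.7% of tested genes. Counting intervals are 95% exact binomial intervals. Counts may include amplification duplicates, so intervals and floors cover counting error only. Promoter windows came from a RefSeq table of GRCh38.p14; the counts were not placed on that build. The HOX genes and all gene lists were chosen with earlier results of these data known. Named genes were HOXA10, HOXA11, up to 6 in each direction between the clones by smallest p, and every member past the threshold for E2 in either fit. Of the listed genes reported here, those called for E2 were named. Up to 4 per direction were planned between the clones, but some lists name fewer or none, and all called neighbours are named. Alternatives were DESeq2 1.42.0 size factors and test, library size only, limma-voom (limma 3.58.1), other count filters, no treatment term, removal of a trend on length and GC content (mgcv 1.9.3), CPM without length and leaving out each library, in the clone comparison without the treatment term. On simulated counts for 15599 genes, 200 of them changed by 1 on the log2 scale, the E2 fit without the block recovered 0 of 196 tested with 0 false calls, the blocked E2 fit 169 of 196 with 12 false calls, and the clone fit 173 of 199 with 8. Some items are not reported here and are not drawn, though they enter the counts. R 4.3.3 and Python 3.11.15 were used.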

Additional observations from a re-analysis of the deposited data

Results flagged for a closer look

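For 13 of the 32 tested HOX genes the E2 change went opposite ways in the 2 clones, and that share was not counted over all genes. The difference itself was not tested, since each clone has 1 library per treatment. HOXB7 was the 1 gene whose 95% exact counting intervals lay on opposite sides of 0, with a log2 ratio of E2 to DMSO of -0.064 in B212 (-0.12 to -0.0062) and 0.11 in A4 (0.044 to 0.19). HOXD4 had 0.74 in B212 (0.50 to 0.98) and -0.063 in A4 (-0.43 to 0.30). For the other genes both intervals included 0. In HOXA, the ratios in B212 and A4 were 0.050 and -0.065 for HOXA10, 0.13 and -0.17 for HOXA3, -0.074 and 0.0081 for HOXA4, 0.11 and -0.038 for HOXA5, and 0.15 and -0.44 for HOXA6. HOXA9, with at most 20 counts in a library, had 0.84 and -1.90. HOXB4 had -0.13 and 0.23, HOXD1 had 0.12 and -0.045, and HOXD8 had -0.035 and 0.0074. HOXC8 had 1.22 in B212, from 2 and 4 counts, and -0.27 in A4, and HOXC10 had 0.58 in B212, from 7 and 9 counts, and -0.33 in A4.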

How the results depend on the processing

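With the clone as a replicate block, E2 called 1492 genes against 0 without it. With the block and another choice the count was 901 (length and GC trend removed), 717 (DESeq2 size factors), 1686 (library size only), 1770 (no filter), 1560 (at least 10 counts in every library), 562 (DESeq2) and 1138 (limma-voom), and DESeq2 without the block called 1. Among HOX genes the block called 3, also with the trend removed, with library size only, with no filter and with at least 10 counts. HOXA10 for E2 changed sign with the block and trend removed (0.018). Without each library in turn and without the block, HOXA10 ranged from -0.095 to 0.070, HOXA11 from -0.45 to 0.28 and HOXB9 from -0.87 to 0.31 for E2. Those fits leave 1 arm with a lone library, assumed to vary like the others, and set unequal shares of the clones against each other, so they say nothing about stability.

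Between the clones, 4456 genes were called without the treatment term, and 3203 to 5754 without that term and each library (4831 without A4 E2, 3253 without B212 DMSO, 3203 without B212 E2). HOX calls stayed between 13 and 18 across alternatives and were 11 to 14 without the treatment term and each library, against 13 without that term alone. HOXB2, HOXC9 and HOXD8 lost their call without the treatment term and by DESeq2, HOXB2 also with no filter and HOXC9 also with library size only. Cluster sums between clones moved to -0.0023 (HOXA, library size only), 0.76 (HOXB, CPM without length), 0.73 (HOXB, library size only), -1.38 (HOXC, CPM), -1.10 (HOXC, library size only) and 0.16 (HOXD, library size only), and HOXC for E2 to -0.035 (CPM). The causes were not tested. Groups of 2 allow no outlier test, and HOXC genes are limited by few counts. Clone fits without 1 library mix treatment into the clone difference, so the number of calls in them says nothing about stability.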
